A study of Mus musculus with 8 samples.

Results

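The genes described here are 6 fatty acid desaturases and elongases of the mouse, Fads1, Fads2, Elovl2, Elovl3, Elovl5 and Scd2, of 18193 genes that had a probe set in the annotation used here. A probe set was taken as theirs when its annotation gave a single gene symbol equal to that of the gene, which gave 12 of the 45037 probe sets tested. Liver RNA of male KK-Ay mice aged 14 weeks was measured on Affymetrix mouse arrays, with 1 array per mouse. The 4 PD mice had been fed AIN93G diet containing 1 g/kg of persimmon peel (PP) extract for 8 weeks, and the 4 CD mice the same diet without the extract. KK-Ay mice carry the yellow obese allele of the agouti gene and are a model of obesity with type 2 diabetes, so that all 8 livers came from obese diabetic animals and no lean mice were included. The study took these livers from feeding groups of 6 PD and 7 CD mice, choosing animals with plasma total ketone bodies near the mean of their group, after a fast of 3 h. The sources used here give no hour of killing for the mice.

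Polyunsaturated fatty acids of long chain are made in the liver from linoleic and alpha-linolenic acid, which come from the diet, by alternating desaturation and elongation in the endoplasmic reticulum. FADS2 carries out the first and rate-limiting desaturation, ELOVL5 lengthens its product and FADS1 desaturates that product to arachidonic or eicosapentaenoic acid. ELOVL2 then lengthens these acids, on the branch of eicosapentaenoic acid towards the precursor of docosahexaenoic acid. The remaining members act on other substrates: ELOVL3 lengthens saturated and monounsaturated acyl chains and is known for its daily rhythm in mouse liver, and SCD2 is a stearoyl-CoA desaturase that makes monounsaturated acids and is found mostly in tissues other than adult liver. In this liver pathway the transcription factors SREBP-1c, LXR and PPAR alpha are known regulators of the desaturase genes.

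Of the 6 genes, 4 lie on chromosome 19 (GRCm38.p6, positions from RefSeq). Fads2 occupies chr19:10062765-10101503 and Fads1 chr19:10182877-10196874, with 81373 bases between them, whereas Scd2 (chr19:44293676-44306864) and Elovl3 (chr19:46131897-46135694) lie further along the chromosome. Elovl5 lies at chr9:77917365-77984519 and Elovl2 at chr13:41182382-41220403. The 250 bases upstream of the gene start are shown for Fads2, the member with the most probe sets called between the diets, and for Elovl5, a member whose values followed those of Fads1 over the mice. The Fads2 window is chr19:10101504-10101753 on the minus strand and the Elovl5 window chr9:77917115-77917364 on the plus strand, both from RefSeq (GRCm38.p6) and written 5′ to 3′ with matches to the motifs named next in capitals.
Fads2: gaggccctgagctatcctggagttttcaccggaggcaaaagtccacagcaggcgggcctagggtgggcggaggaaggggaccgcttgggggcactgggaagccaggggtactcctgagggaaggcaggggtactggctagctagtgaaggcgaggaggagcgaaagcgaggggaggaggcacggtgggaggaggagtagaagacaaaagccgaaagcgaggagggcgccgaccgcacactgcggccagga
Elovl5: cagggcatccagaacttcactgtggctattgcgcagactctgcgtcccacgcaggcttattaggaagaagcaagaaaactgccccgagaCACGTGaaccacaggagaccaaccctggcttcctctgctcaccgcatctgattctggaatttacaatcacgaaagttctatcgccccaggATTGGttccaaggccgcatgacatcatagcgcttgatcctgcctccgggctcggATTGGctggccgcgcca

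The windows were searched on both strands for a sterol regulatory element (TCACNCCAC), the CCAAT box bound by NF-Y (CCAAT), the E-box bound by clock and SREBP proteins (CACGTG), forms of the D-box bound by DBP and NFIL3 (TTATGCAA and TTATGTAA) and the core element of nuclear receptors (AGGTCA). The Elovl5 window held an E-box 161 bases before the gene start and CCAAT boxes, read as ATTGG on this strand, at 71 and 17 bases before it. The Fads2 window held 0 matches, as did the 2 RefSeq windows of Elovl2. Fads1, Elovl3 and Scd2 had no window in the set used here and were not searched. Of all 32851 RefSeq windows of this length, 33.85% held a CCAAT box, 6.021% this E-box, 14.02% the nuclear receptor element, 1.053% the sterol regulatory element, and 0.694% and 0.8188% the forms of the D-box.

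The values were log2 model-based expression indices as deposited, and no counts or depths exist for arrays, so that the number of mice limits the precision. Array medians lay between 7.11 and 7.15 in PD mice and between 7.09 and 7.16 in CD mice, and correlations between arrays lay between 0.991 and 0.996. As a sign of RNA integrity, the 3′ probe set of Actb exceeded its 5′ probe set by a log2 value of 1.14 to 1.18 in PD mice and 1.16 to 1.19 in CD mice. The 7 measured hepatocyte markers summed to between 104777 and 107879 on the linear scale in PD mice and between 102585 and 109820 in CD mice. Of the 7, 5 had lower means in PD mice (median difference −0.0016). Only Tat was called, lower in PD mice (−0.44), a call lost without PD replicate 4 (−0.30), CD replicate 1 (−0.41), CD replicate 2 (−0.43) or CD replicate 3 (−0.47). Asgr1 differed by −0.10 (standard error 0.044) and was not called. For Tat and Asgr1 each PD mouse lay below each CD mouse, an order that 1.02% of all probe sets had. Of the 5 measured adipocyte markers, 0 were called, their sum was 581 to 630 in PD and 585 to 627 in CD mice, and Adipoq and Lep were in the dimmest 25% of probe sets. Of the 8 stellate cell markers 5 had higher means in PD mice (median difference 0.11), their sum was 3826 to 3927 in PD and 3231 to 4152 in CD mice, and Col1a1 was among the dimmest 25%. Among them Col3a1 was called higher in PD mice (0.37), a call lost without PD replicate 2 (0.33), PD replicate 3 (0.37), PD replicate 4 (0.36) or CD replicate 2 (0.25), and Lrat differed by 0.28 (standard error 0.095) and was not called. The neutrophil marker S100a9 differed by −0.27 (standard error 0.0996) and was not called. Of the 10 marker lists, the 7 other than those of hepatocytes, adipocytes and stellate cells held 0 calls. The part of these markers in the results on the members was not tested. In whole liver, fewer cells of a type and less RNA per cell cannot be told apart.

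Fads2 was higher in PD than in CD mice and Elovl3 was lower, and for the other 4 genes 0 probe sets were called. A probe set was called when the rank product, which ranks the ratios of a PD array to a CD array over all 16 combinations, gave a false discovery rate (FDR) under 0.1. Of the 12 member probe sets 2 were called higher and 1 lower in PD mice, against 0.202% and 0.26% of all probe sets (0.462% in either direction). Mean values were higher in PD mice for 8 of the 12, against 47.1% of all probe sets, and the median difference (PD minus CD) was 0.11, against −0.0043 over all probe sets. By limma, which sets a difference against the spread between mice, 0 of the 12 had an adjusted p under 0.1, as had 0.0% of all probe sets, and the adjusted p was 0.998 for each member. Without adjustment 5 of the 12, all higher in PD mice, had a limma p under 0.05, against 3.65% of all probe sets (1.69% higher and 1.95% lower in PD mice). These 5 were all the probe sets of Fads2, the brighter of Fads1 and that of Elovl2, so that they stand for fewer genes than probe sets. The groups did not overlap in 2 of the 12, in which each PD mouse lay above each CD mouse, against 1.06% of all probe sets with that order, 1.02% with the opposite order and 2.08% with either.

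**Figure D1:**
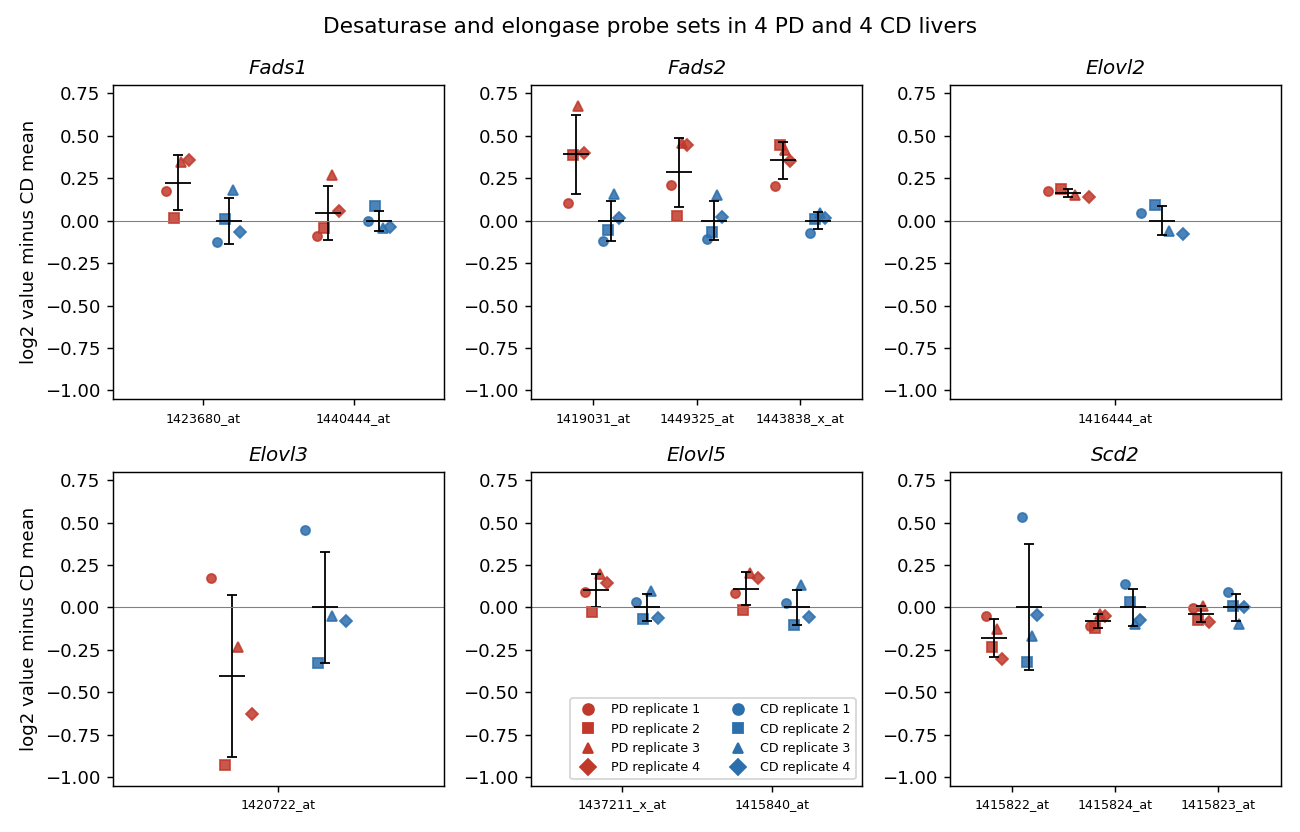
Log2 value minus the CD mean (vertical axis) of each of the 12 probe sets of the 6 genes, with PD mice (red) left of CD mice (blue), 1 point per mouse and a symbol per replicate number; bars show the mean and SD of 4 mice. All PD points lie above the CD points for Fads2 1443838_x_at and Elovl2 1416444_at, whereas the Elovl3 points of the groups overlap around means that differ by −0.40.

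Fads2 was the only member with a probe set called higher in PD mice. Its brightest probe set, 1419031_at, gave log2 values of 10.58, 10.87, 11.15 and 10.88 in PD mice and 10.36, 10.42, 10.63 and 10.49 in CD mice. The value of PD replicate 1 lay below that of CD replicate 3, and the other 3 PD mice lay above all CD mice. The mean was 10.87 ± 0.23 in PD mice and 10.48 ± 0.12 in CD mice (SD, n = 4 each). The difference was 1.31-fold, or 0.39 on the log2 scale (standard error 0.11, rank product FDR = 0.0235), and the exact permutation test over the 8 mice gave p = 0.0571.

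A second Fads2 probe set, 1443838_x_at, gave 8.79, 9.04, 9.01 and 8.94 in PD mice and 8.52, 8.60, 8.63 and 8.60 in CD mice, and the groups did not overlap. Its mean was 8.94 ± 0.11 in PD mice and 8.59 ± 0.050 in CD mice (SD, n = 4 each). The difference was 1.28-fold, or 0.36 on the log2 scale (standard error 0.059, FDR = 0.025), with p = 0.0286 by the two-sided exact permutation test, the smallest p that 4 mice against 4 allow. The ending of its name marks a probe set whose probes can also match other transcripts. The remaining probe set, 1449325_at, gave 9.84, 9.65, 10.08 and 10.07 in PD mice and 9.52, 9.56, 9.78 and 9.65 in CD mice, where PD replicate 2 lay inside the CD range. Its difference of 0.28 (standard error 0.096) was not called (FDR = 0.144). Over the 8 mice the 3 Fads2 probe sets correlated pairwise with r between 0.69 and 0.91. Both Fads2 calls were lost without PD replicate 2 (log2 differences of 0.39 for 1419031_at and 0.32 for 1443838_x_at), without PD replicate 3 (0.30 and 0.33) and without PD replicate 4 (0.39 and 0.36).

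Fads1, whose product acts after that of Fads2, was not called. Its brighter probe set, 1423680_at, gave 11.98, 11.82, 12.15 and 12.16 in PD mice and 11.68, 11.81, 11.99 and 11.74 in CD mice. PD replicates 3 and 4 lay above all CD mice, and PD replicates 1 and 2 lay inside the CD range. The mean was 12.03 ± 0.16 in PD mice and 11.80 ± 0.13 in CD mice (SD, n = 4 each), a log2 difference of 0.22 (limma 95% interval 0.032 to 0.42, FDR = 0.327, exact permutation test p = 0.0857). Without CD replicate 3 it was called, with a difference of 0.29 (FDR = 0.093), and the same omission brought the Fads2 probe set 1449325_at to 0.34 (FDR = 0.0473). The other Fads1 probe set, 1440444_at, ranged from 6.95 to 7.31 in PD mice and from 7.00 to 7.13 in CD mice. Its difference was 0.048 (limma 95% interval −0.12 to 0.21), it turned to −0.026 without PD replicate 3, and it correlated with the brighter probe set with r = 0.48.

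Elovl5, the elongase between the 2 desaturation steps, had probe sets among the brightest of the array, and the groups overlapped in both. Probe set 1437211_x_at gave 13.48, 13.36, 13.59 and 13.53 in PD mice and 13.42, 13.32, 13.49 and 13.33 in CD mice, with PD replicates 3 and 4 above all CD mice. The difference was 0.10 (limma 95% interval −0.033 to 0.23, exact permutation test p = 0.171), and that of probe set 1415840_at was 0.11 (−0.034 to 0.26, p = 0.2 by the same test), neither of them called. These probe sets followed each other over the 8 mice (r = 0.98).

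Elovl2, which lengthens the polyunsaturated acids of the last steps, showed a small difference with little spread. The values were 12.12, 12.14, 12.10 and 12.09 in PD mice and 12.00, 12.04, 11.89 and 11.87 in CD mice, so that each PD mouse lay above each CD mouse. The mean was 12.11 ± 0.021 in PD mice and 11.95 ± 0.084 in CD mice (SD, n = 4 each), which is 1.12-fold or 0.16 on the log2 scale (limma 95% interval 0.053 to 0.27). The rank product, which goes by the size of the ratio, gave FDR = 0.761 and did not call it, and the exact permutation test gave p = 0.0286.

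Elovl3 was called lower in PD mice by the rank product, with the widest spread between mice of the 12 probe sets. Its values were 11.97, 10.87, 11.57 and 11.18 in PD mice and 12.26, 11.47, 11.75 and 11.72 in CD mice. The groups overlapped: PD replicate 1 lay above 3 of the 4 CD mice, and CD replicate 2 lay below PD replicates 1 and 3. The mean was 11.40 ± 0.48 in PD mice and 11.80 ± 0.33 in CD mice (SD, n = 4 each), a fold of 0.756 (log2 difference −0.40, standard error 0.22, limma 95% interval −0.89 to 0.086, FDR = 0.0504), and the exact permutation test gave p = 0.229. The call was lost without PD replicate 2 (−0.23) or 4 (−0.33) and without CD replicate 1 (−0.25), 3 (−0.42) or 4 (−0.43), whereas the difference was −0.60 without PD replicate 1.

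Scd2 was not called on any of its 3 probe sets. Probe set 1415822_at gave 7.09, 6.90, 7.01 and 6.83 in PD mice and 7.67, 6.82, 6.97 and 7.09 in CD mice. CD replicate 1 stood above the other 7 mice, and without it the difference of −0.18 (limma 95% interval −0.51 to 0.15, exact permutation test p = 0.543) became −0.0019. The other probe sets differed by −0.080 and −0.038 and had mean values in the dimmest 25% of the array.

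The remaining desaturases and elongases, a list of 10 measured genes, held 0 calls, with a median difference of 0.038 against −0.0056 over the 18193 genes. In this and the other lists a gene is represented by its brightest probe set, and a call on another probe set is named beside the count. Of all genes so represented 0.264% were called higher and 0.357% lower, and 46.5% had a higher mean in PD mice. Scd1, the main stearoyl-CoA desaturase of liver, differed by 0.035 (standard error 0.060) and Elovl6, which lengthens palmitic to stearic acid, by 0.21 (standard error 0.20). Elovl1 and Fads3 differed by 0.033 and −0.0007. Thus 8 of these 10 genes had a higher mean in PD mice and 0 of them had a limma p under 0.05, against 4.24% of all genes.

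**Figure D2:**
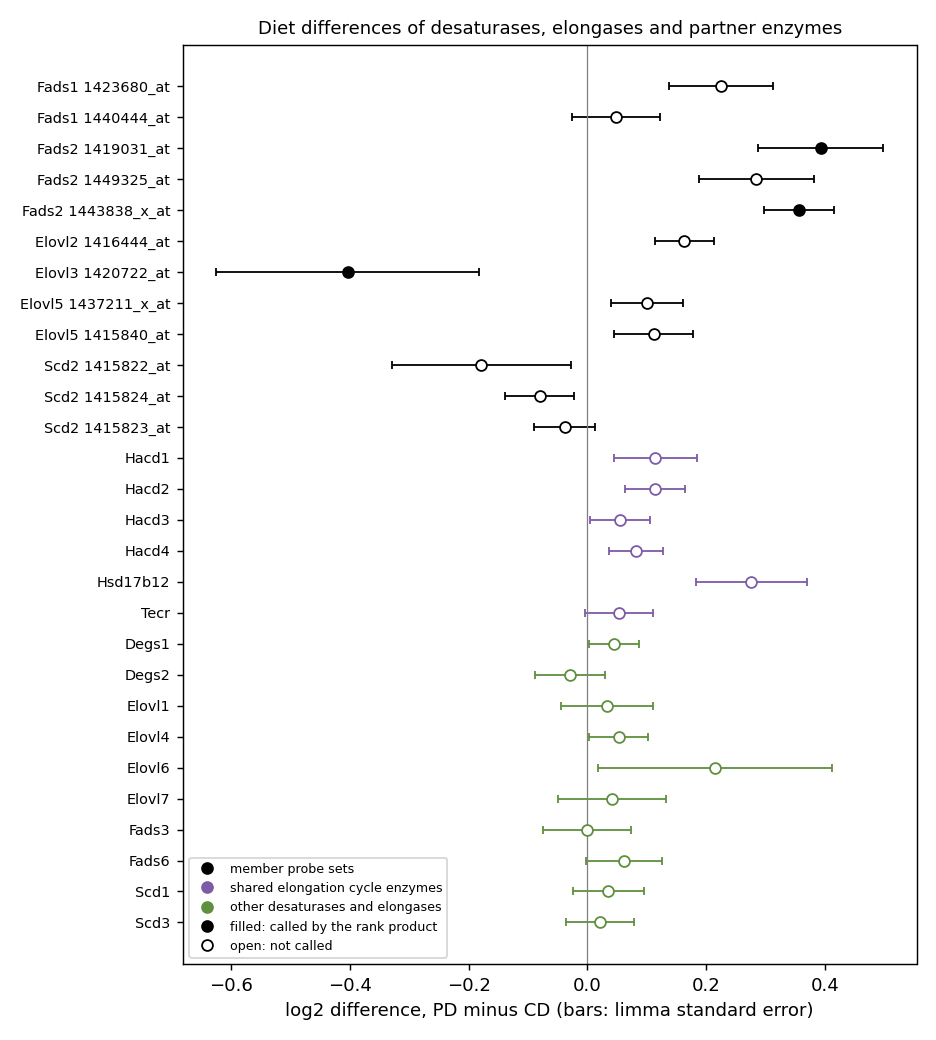
Log2 difference, PD minus CD (horizontal axis), with the limma standard error as bars, for the 12 member probe sets (black), the 6 shared enzymes of the elongation cycle (purple) and 10 other desaturases and elongases (green). Filled points, which are Fads2 (0.39 and 0.36) and Elovl3 (−0.40), were called by the rank product and open points were not.

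Elongases catalyse only the condensation step of each cycle, and the reduction and dehydration steps that follow are shared by all of them. By its brightest probe set, each of the 6 genes of these shared steps had a higher mean in PD mice, with a median difference of 0.098 and 0 calls. Hsd17b12, the ketoacyl-CoA reductase of the cycle, gave 11.27, 11.75, 11.44 and 11.54 in PD mice and 11.28, 11.12, 11.35 and 11.15 in CD mice. All PD mice except replicate 1 lay above the CD mice, and the difference was 0.28 (standard error 0.093, FDR = 0.189, exact permutation test p = 0.0857). The dehydratase Hacd2 differed by 0.11 (standard error 0.050), Hacd3 by 0.055 and the enoyl-CoA reductase Tecr by 0.054.

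Desaturases take electrons from NADH through cytochrome b5 and its reductase. Of the 6 genes of this electron chain, 3 had higher and 3 lower means in PD mice and 0 were called, with differences of 0.0038 for Cyb5a and 0.089 for Cyb5r3. The peroxisomal enzymes that shorten the last intermediate to docosahexaenoic acid were split as evenly, with 4 of 8 measured genes higher, 0 called and a difference of −0.048 for Hsd17b4, the bifunctional enzyme. Of the 12 measured acyl-CoA synthetases and phospholipid acyltransferases, which place polyunsaturated acids in phospholipids, 7 had higher means and 0 were called. In this list Acsl4, which activates arachidonic acid, differed by 0.20 (standard error 0.089) and Lpcat3, which places polyunsaturated acids in phosphatidylcholine, by 0.18 (standard error 0.077).

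The genes for known regulators of these enzymes were not called: of 15 measured, 5 had higher and 10 lower means in PD mice, with a median difference of −0.042. Srebf1 differed by 0.039 (standard error 0.16), Srebf2 by −0.045 (standard error 0.042) and Nr1h3, which encodes LXR alpha, by −0.069 (standard error 0.051). Ppara gave 10.58, 10.66, 10.66 and 10.74 in PD mice and 10.15, 10.56, 10.75 and 10.35 in CD mice, where CD replicate 3 lay above all PD mice, a difference of 0.20 (standard error 0.11). These are mRNA levels, and the activity of the proteins was not measured. The fatty acid synthesis genes, which share regulators with the desaturases, held 3 calls among 9 genes, all of them higher in PD mice (Acacb 0.35, Fasn 0.26 and Thrsp 0.22), and all 9 had higher means. The standard errors of these 3 differences were 0.17, 0.23 and 0.35. Of the 9 genes 0 had a limma p under 0.05, against 4.24% of all genes. Further probe sets of Thrsp and of Acly (0.35), a gene whose brightest probe set was not called, were also called higher. The Acly call was lost without PD replicate 2 (0.31), 3 (0.23) or 4 (0.36) or CD replicate 2 (0.23). Each of the other 3 calls was lost without PD replicate 2 (0.36 for Acacb, 0.16 for Fasn and −0.024 for Thrsp), PD replicate 3 (0.21, 0.14 and 0.049) or PD replicate 4 (0.32, 0.22 and 0.21), that of Acacb also without CD replicate 2 (0.26) or 4 (0.30), and that of Fasn without CD replicate 1 (0.27) or 2 (0.096).

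Over the 8 mice Fads1 followed Elovl5 with r = 0.86 (Spearman's rho 0.81, two-sided permutation p = 0.0101) and Fads2 with r = 0.78 (rho 0.88, permutation p = 0.0255). As deviations from the mean of each diet these correlations were 0.79 and 0.56. Between Fads2 and Elovl5 r was 0.67 (rho 0.74, permutation p = 0.0704), 0.46 as deviations and 0.11 without PD replicates 3 and 4. Elovl3 followed Scd2 (r = 0.78, rho 0.79, permutation p = 0.0182), with r = 0.74 as deviations and 0.82 without PD replicate 2 and CD replicate 1, the mice farthest from the Elovl3 median. Without PD replicates 3 and 4, the mice farthest from the Fads1 median, r was 0.66 between Fads1 and Elovl5 and 0.46 between Fads1 and Fads2, and thus the relation of Fads1 and Fads2 rests in part on these mice. Of the 15 pairs of members, 3 had an unadjusted p under 0.05 and 0 an adjusted p under 0.05 (Benjamini-Hochberg p = 0.127 for each of the 3 by permutation).

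**Figure D3:**
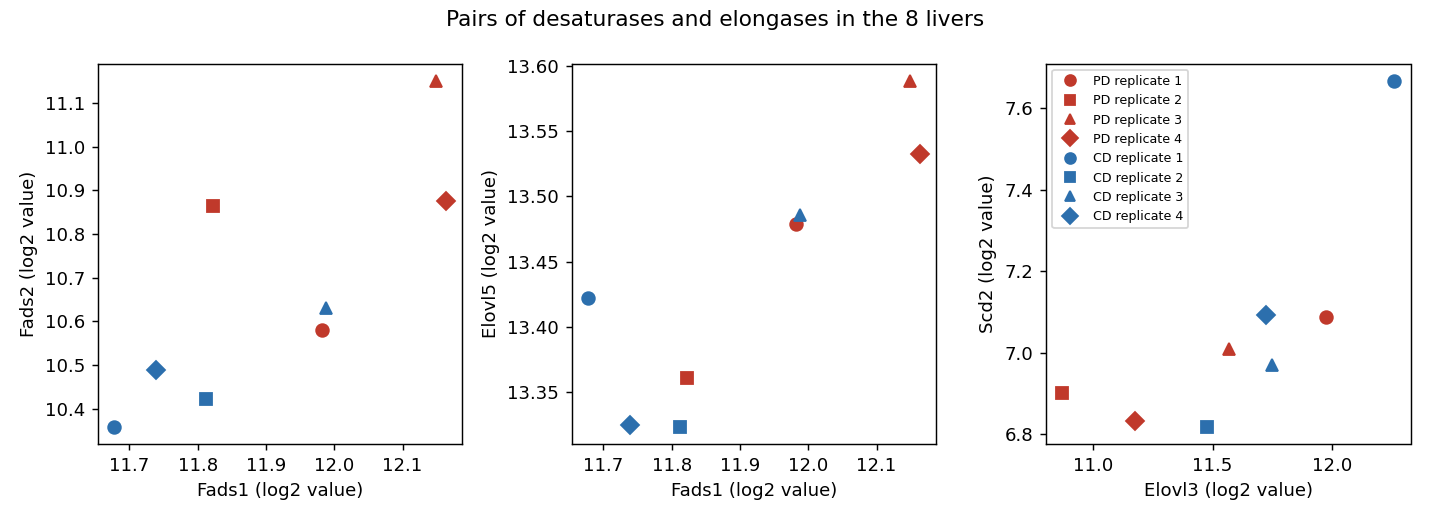
Log2 values of Fads2 against Fads1, of Elovl5 against Fads1 and of Scd2 against Elovl3, 1 point per mouse, PD mice in red and CD mice in blue with a symbol per replicate number. The points rise together in each panel (r = 0.78, 0.86 and 0.78 over 8 mice), and CD replicate 1 is the highest point for both Scd2 and Elovl3.

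Over all genes with an SD of at least 0.2 and a level above the array median, the genes nearest to each member in pattern over the 8 arrays are given as a description without a test. For Fads1 they were the Fads2 probe set 1449325_at (r = 0.96), the transcript 2010003K11Rik (0.92) and Vnn1 (0.91), which encodes a pantetheinase. For Elovl5 they were again Fads2 (0.87) and Vnn1 (0.87) and then a Ppara probe set other than its brightest (0.86). The brightest Ppara probe set, whose values are given above, had r = 0.45 with Elovl5. With Fads1 its r was 0.79 (rho 0.90, 0.69 as deviations) and with Fads2 0.67 (rho 0.81, 0.48 as deviations). It was 0.34 with Elovl2, −0.65 with Elovl3 and −0.85 with Scd2. None of these passed the adjustment over the 192 pairs described below (adjusted permutation p = 0.154 for Fads1 and 0.322 for Fads2). For Fads2 the nearest genes were Vapb (0.93), which encodes a protein of the endoplasmic reticulum membrane, Rassf4 (0.93) and Sbk1 (0.88). For Elovl2 they were a Tef probe set other than its brightest (0.80), Gstm3 (0.79) and Sbk1 (0.76). The brightest Tef probe set had r = 0.34 with Elovl2. The genes nearest to Elovl3 were Chka (0.97), which encodes choline kinase alpha, Sco2 (0.97) and Lgalsl (0.97), and those nearest to Scd2 were Desi2 (0.93), the clock gene Cry1 (0.90) and Chka (0.90). Vnn1 (0.74), Vapb (0.55), Rassf4 (0.69), Sbk1 and Gstm3 were called higher in PD mice, and Chka (−0.63), Lgalsl (−0.35) and Cry1 (−0.45) lower. These genes were chosen by r over all 8 arrays, PD and CD together, which favours genes that differ between the diets as the member does. Their calls are therefore not independent of the values of the members. The calls of Vnn1, Vapb and Rassf4 held without any 1 of the 8 mice, that of the Chka probe set nearest to Elovl3 was lost without CD replicate 1 (−0.35), and that of Gstm3 without PD replicate 2 (0.34) or 4 (0.39). The Chka probe set nearest to Scd2 (−0.45) lost its call without PD replicate 4 (−0.40) or CD replicate 1 (−0.15), 2 (−0.54) or 3 (−0.50), and those of Lgalsl and of the Sbk1 probe set nearest to Fads2 were lost in 6 of the 8 such runs each.

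Since Elovl3 is known for its daily rhythm, each member was set against the measured clock genes and regulators over the mice, a family of 192 pairs that was chosen after the values had been seen. Elovl3 followed Arntl, the activator of the clock also called Bmal1, in the same rank order in all 8 mice (rho 1.00, adjusted permutation p = 0.00952), with r = 0.94 (adjusted permutation p = 0.0595). With Clock, the partner of Arntl, r was 0.95 (adjusted permutation p = 0.0286, rho 0.98). As deviations from the diet means r was 0.93 for Arntl and 0.93 for Clock, and without PD replicate 2 and CD replicate 1 it was 0.87 and 0.90. Arntl gave 7.50, 6.74, 7.17 and 7.08 in PD mice and 7.95, 7.08, 7.36 and 7.19 in CD mice, so that CD replicate 1 was highest and PD replicate 2 lowest, as for Elovl3.

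Of the other clock genes, Cry1, a repressor of the clock, followed Elovl3 (r = 0.90) and gave 7.78, 7.28, 7.53 and 7.12 in PD mice and 8.41, 7.37, 7.84 and 7.87 in CD mice. Dbp, an output activator of the opposite phase, ran against Elovl3 (r = −0.82, rho −0.93) with 10.94, 11.96, 11.85 and 11.73 in PD mice and 9.20, 11.64, 10.98 and 11.53 in CD mice. Neither r passed the adjustment over the 192 pairs (adjusted permutation p = 0.0625 and 0.107). Among the 17 measured clock genes 1 was called higher in PD mice (Dbp, 0.78) and 2 lower (Cry1, −0.45, and Nfil3, −0.49), and 14 were not called, among them Arntl (−0.27) and Clock (−0.20). Per3, not called on its brightest probe set (0.11), was called higher on 2 others (0.46 and 0.37), calls lost without PD replicate 2 (0.33 for both), PD replicate 3 (0.42 and 0.33), PD replicate 4 (0.44 and 0.40) or CD replicate 1 (0.29 and 0.27). Without CD replicate 1 the calls were also lost for Dbp (0.24), Cry1 (−0.27) and Nfil3 (−0.27), as was that of Elovl3. The call of Cry1 was also lost without PD replicate 4 (−0.34), CD replicate 3 (−0.46) or CD replicate 4 (−0.45), and that of Nfil3 without CD replicate 3 (−0.50). The part of these 4 clock genes in the difference of Elovl3 was not tested.

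**Figure D4:**
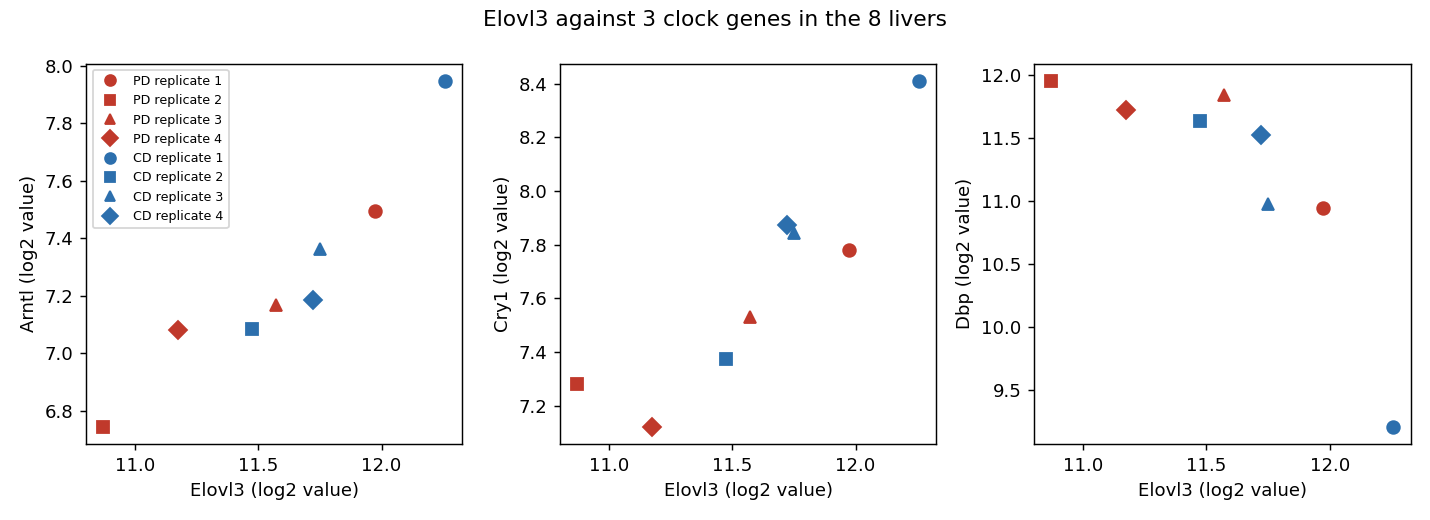
Log2 values of Arntl, Cry1 and Dbp against Elovl3, 1 point per mouse, PD mice in red and CD mice in blue with a symbol per replicate number. The points rise for Arntl (r = 0.94) and Cry1 (r = 0.90) and fall for Dbp (r = −0.82), with CD replicate 1 at one end of each panel.

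Of the members of the polyunsaturated pathway, Fads1 correlated with Arntl and Clock with r = −0.28 and −0.23, and Fads2 with r = −0.54 and −0.61. With Npas2, which can take the place of Clock, r was −0.83 for Fads1 and −0.83 for Fads2 (adjusted permutation p = 0.101 and 0.138), −0.71 and −0.68 as deviations, and −0.58 and −0.68 without PD replicates 3 and 4. Fads2 was nearest to Cry2, another repressor of the clock (r = 0.90, adjusted permutation p = 0.0625, 0.73 as deviations and 0.95 without PD replicates 3 and 4). Cry2 gave 8.38, 8.60, 8.57 and 8.46 in PD mice and 8.14, 8.23, 8.32 and 8.35 in CD mice, where each PD mouse lay above each CD mouse, as for the Fads2 probe set 1443838_x_at and for Elovl2, and it was not called (FDR = 0.279). Scd2 followed Cry1 (r = 0.90, adjusted permutation p = 0.0625), with 0.92 as deviations. Over the 17 clock genes, Elovl3 had a positive r with 7 and a negative r with 10. Correlations of this size were not limited to clock genes. Among the regulators, Elovl3 had r = 0.94 with Hnf4a (0.92 as deviations), 0.87 with Insig2, 0.82 with Scap and −0.81 with Rnf145. None of these passed the adjustment (adjusted permutation p = 0.0625, 0.104, 0.0625 and 0.160). In the whole family 35 pairs had an unadjusted p under 0.05, and after adjustment 1 pair passed by Pearson's r and 2 by Spearman's rho, all of them with Elovl3.

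Elovl3 also has a higher level in males than in females in mouse liver, and all 8 mice were male. Of the 11 measured genes with a male bias in liver, 3 had higher and 8 lower means in PD mice, with a median difference of −0.12 and 0 calls on the brightest probe sets. Serpina12 was called lower on another probe set (−0.43), a call lost without PD replicate 4 (−0.31) or CD replicate 1 (−0.31) or 3 (−0.33). Of the 5 measured genes with a female bias, 3 had higher means, and Acot3 (0.52) and Cyp2b9 (0.51) were called higher in PD mice. Without PD replicate 4 both calls were lost (0.26 and −0.063), and that of Cyp2b9 also without CD replicate 1 (0.32).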

How the data were processed

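Affymetrix arrays were hybridised with liver RNA of 4 PD and 4 CD mice. The authors deposited a model-based expression index on the log2 scale for each array, which was used without change. The submitters' processing notes name R 2.7.2, and how arrays were normalized to each other is not stated in the sources used here. After 64 control probe sets had been left out, 45037 were tested, of which 34945 carried 1 gene symbol, 932 several and 9160 none.

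The rank product, the test of the study's methods, was computed over all probe sets in Python 3.11.15 (numpy 2.4.6, pandas 2.3.3, scipy 1.17.1) from 16 pairs of arrays and 1000 permutations. The same values were also tested with limma (version 3.58.1, R 4.3.3) over all probe sets, with Benjamini-Hochberg adjustment. Single values were compared by two-sided exact permutation tests over the 70 splits of the 8 mice. The code was tested on simulated data.

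The members, lists and tests were chosen with earlier results of these data known. All members are named. Of the lists, genes with a called probe set or a limma p under 0.05 and a set of enzymes and regulators could be named, and a choice of these was made after their values had been seen. For each member the 3 genes of highest r are given. Same-numbered mice did not deviate together (r between −0.06 and −0.00), so no pairing was used. Alternatives were other thresholds, normalizations, filters and tests, and leaving out each mouse. Figures were drawn with matplotlib 3.10.9.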

Additional observations from a re-analysis of the deposited data

Results flagged for a closer look

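In 5 of the 94 groups of 4 mice examined, of the member, list and clock genes, a mouse lay far from the other 3 by Dixon's ratio, a criterion that chance alone meets in about 1 in 20 groups. None of the member probe sets was among them. Srebf2, the regulator of cholesterol synthesis, stood at 7.77 in PD replicate 4, the other PD mice lying at 7.68 to 7.69. Scp2, a peroxisomal thiolase and carrier, stood at 13.86 in PD replicate 2, the others lying at 13.96 to 13.97. Tef, a partner of Dbp among the clock output genes, was 10.06 in PD replicate 1, against 10.50 to 10.57. The clock activator Npas2 was 7.21 in CD replicate 1, with 6.73 to 6.78 in the remaining CD mice. This mouse also had the highest Elovl3 and Scd2 values and the highest value on the brightest Arntl probe set. The clock repressor Bhlhe41 was 7.98 in CD replicate 3, against 8.23 to 8.27.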

How the results depend on the processing

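With an FDR under 0.05 the calls lower in PD mice fell to 0 member probe sets and 59 over the array, so that Elovl3 (−0.40) was not called. Against the mean of the CD arrays 0 member probe sets and 5 over the array were called lower, Elovl3 was lost (−0.40) and the Fads2 probe set 1449325_at (0.28) was gained. Without probe sets named _s_at and _x_at, 1 member probe set was called higher. By limma, whether plain, with array weights, with the replicate block or with robust variances and a trend, and by the methods' t-test after Benjamini-Hochberg, 0 member probe sets and 0 over the array were called in either direction, so that Fads2 (0.39, and 0.43 with array weights; 0.36 in 1443838_x_at) and Elovl3 (−0.40, and −0.36 with array weights) lost their calls (lowest adjusted p of Fads2 0.550 with the replicate block). The methods' t-test at an unadjusted p under 0.05 called 831 probe sets higher and 880 lower, with 0 member probe sets lower, and added Elovl2 (0.16) but not Elovl3 (−0.40). With the replicate block the rank product called 2 member probe sets higher (both of Fads2) and 1 lower, and 109 and 102 over the array. The replicate numbers only name mice, since 0 PD mice correlated best with their own number.

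Leaving out each mouse gave 0 to 4 member probe sets called higher, of Fads2 and, without CD replicate 3, Fads1, and 0 to 1 lower (27 to 190 and 16 to 209 over the array). Differences ranged over 0.18 to 0.29 for Fads1, −0.026 to 0.094 for its probe set 1440444_at, 0.30 to 0.49 for Fads2, 0.23 to 0.37 and 0.32 to 0.41 for its probe sets 1449325_at and 1443838_x_at, 0.14 to 0.20 for Elovl2, −0.60 to −0.23 for Elovl3, 0.068 to 0.14 for Elovl5 and −0.29 to −0.0019 for Scd2. Outside the members, Cyp2b9 ranged from −0.063 to 0.73 and Thrsp from −0.024 to 0.65, and of 23 called probe sets of other genes 4 kept their call in all 8 runs. The cause of these changes was not tested. As deviations from the diet means, correlations changed sign for Fads1 with Elovl2 (−0.39) and Elovl3 (0.019), Fads2 with Elovl2 (−0.41), Elovl2 with Elovl5 (−0.34) and Scd2 (0.093), and Elovl5 with Scd2 (0.21), and without the 2 farthest mice for Elovl3 with Elovl5 (−0.15). Quantile normalization, centring on the median, 16 added before the log2, the filter on dim probe sets, 100 permutations and averaging the probe sets of a gene changed no call of a member.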
